A study of Mus musculus with 2 samples.

Results

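The genes of the sarcomere, the contractile unit of striated muscle, were examined for CpG methylation in cultured myotubes with and without a small interfering RNA against H19. The list held 43 genes, given by name, out of 55413 genes of the annotation on assembled chromosomes. Each gene was read at its start, in a window reaching 1 kb to each side, and separately over the rest of its span, called the body. A CpG cytosine was compared where both libraries covered it with 5 reads or more and where it lay outside CCGG and TCGA, the sites of the enzymes MspI and TaqI that cut the DNA. There were 2718 of these in the listed genes, out of 1850635 in the genome.

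The DNA came from Mouse C3H myoblasts that had been differentiated into myotubes, the fused multinucleate muscle cells of culture, in low-serum medium. They were transfected with a control siRNA (siControl, here siCon) or with siH19, which targets the long non-coding RNA H19, and were harvested 48 h later for reduced representation bisulfite sequencing, which reads cytosine methylation at restriction fragment ends. Both groups shared the cell line, the differentiation and the transfection, and each group was 1 library. With 1 library per group no replicate error could be given. Every p-value below compares these 2 libraries and not the conditions, and every interval covers counting error only. The reads carry no RNA level, so neither the knockdown of H19 nor the myotube identity could be checked, and each level is an average over all cells of the culture. The siCon library held 104999613 reads summed over its CpG cytosines and the siH19 library 106372792, and the median depth of the compared cytosines of these genes was 24 and 22 reads.

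Muscle contracts when myosin of the thick filaments pulls on actin of the thin filaments. Troponin and tropomyosin on the thin filament make this depend on calcium, the Z disc anchors thin filaments, the M band links thick filaments, and titin spans from Z disc to M band. Methylation of a CpG-rich start is as a rule low where the gene can be active, whereas CpGs inside gene bodies are often methylated, and many muscle genes have CpG-poor starts. Myosin heavy chains, light chains and troponins come in fast, slow and developmental forms that are switched between fibre types and stages.

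Several sequences carry the values that follow, and are printed here for that reason. Each is read 5′ to 3′ along its gene's strand in GRCm38, in lower case, with the CpGs that were compared in capitals. The first is the part of the Acta1 gene, which encodes skeletal muscle alpha-actin, where methylation was higher in siH19 on both strands (chr8:123892467-123892766, minus strand, coding exon and intron). It held 21 CpGs, 17 of which were compared.
Acta1 body: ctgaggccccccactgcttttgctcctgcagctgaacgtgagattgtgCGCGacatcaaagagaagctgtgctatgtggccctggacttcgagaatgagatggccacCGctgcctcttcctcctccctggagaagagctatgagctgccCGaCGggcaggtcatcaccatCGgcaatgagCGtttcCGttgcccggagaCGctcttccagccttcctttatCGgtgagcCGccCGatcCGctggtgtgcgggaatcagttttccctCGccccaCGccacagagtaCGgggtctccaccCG
The next lies in an intron of Myoz1, a Z disc protein of fast fibres (chr14:20653163-20653221, minus strand), and its compared CpGs lie in a soft-masked repeat.
Myoz1 intron: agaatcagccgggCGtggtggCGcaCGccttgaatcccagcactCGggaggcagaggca
A stretch in an intron of Neb, the giant thin filament protein nebulin, was also higher in siH19 (chr2:52335981-52336039, minus strand).
Neb intron: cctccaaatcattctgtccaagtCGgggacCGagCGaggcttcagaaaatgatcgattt
A Ttn exon (titin; chr2:76835927-76835956, minus strand) held the single cytosine with the lowest p.
Ttn exon: aaaaactcaactccCGacaggtacaaCGga
Starts of unlike level are shown by RefSeq promoters on GRCm38.p6, each 300 bases long. The Des promoter (desmin; chr1:75360042-75360341, plus strand) leads into a long low-methylated stretch.
Des: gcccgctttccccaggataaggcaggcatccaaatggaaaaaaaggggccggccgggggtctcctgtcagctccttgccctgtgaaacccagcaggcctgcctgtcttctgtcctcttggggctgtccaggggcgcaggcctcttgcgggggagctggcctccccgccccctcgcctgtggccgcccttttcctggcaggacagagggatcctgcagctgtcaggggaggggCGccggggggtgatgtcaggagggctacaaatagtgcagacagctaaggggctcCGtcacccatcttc
The Actn2 promoter (alpha-actinin of the Z disc; chr13:12340683-12340982, minus strand) had 14 of its 19 CpGs compared and an intermediate level.
Actn2: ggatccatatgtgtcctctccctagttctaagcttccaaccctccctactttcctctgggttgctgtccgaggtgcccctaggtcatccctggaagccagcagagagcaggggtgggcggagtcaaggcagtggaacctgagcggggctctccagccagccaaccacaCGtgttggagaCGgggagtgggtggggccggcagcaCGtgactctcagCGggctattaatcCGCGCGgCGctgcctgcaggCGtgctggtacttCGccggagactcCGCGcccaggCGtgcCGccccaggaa
The Acta1 promoter (chr8:123894726-123895025, minus strand) had 4 of its 12 CpGs compared and a low level.
Acta1: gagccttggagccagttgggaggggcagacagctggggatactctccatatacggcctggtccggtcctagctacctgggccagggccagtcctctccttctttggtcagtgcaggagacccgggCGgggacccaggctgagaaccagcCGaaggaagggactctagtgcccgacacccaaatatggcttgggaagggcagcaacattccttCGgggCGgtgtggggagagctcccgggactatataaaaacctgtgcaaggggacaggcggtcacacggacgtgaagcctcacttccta
For Tpm3, a slow tropomyosin, the first start (chr3:90072401-90072700, plus strand) has 3 CpGs, none of them compared, whereas the inner start (chr3:90079271-90079570, plus strand) has 15.
Tpm3 first start: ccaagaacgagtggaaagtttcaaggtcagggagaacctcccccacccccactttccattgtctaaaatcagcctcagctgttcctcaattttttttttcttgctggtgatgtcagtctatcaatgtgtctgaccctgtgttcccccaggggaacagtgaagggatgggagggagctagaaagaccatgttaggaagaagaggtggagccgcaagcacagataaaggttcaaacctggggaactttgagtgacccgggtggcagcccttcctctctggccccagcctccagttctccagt
Tpm3 inner start: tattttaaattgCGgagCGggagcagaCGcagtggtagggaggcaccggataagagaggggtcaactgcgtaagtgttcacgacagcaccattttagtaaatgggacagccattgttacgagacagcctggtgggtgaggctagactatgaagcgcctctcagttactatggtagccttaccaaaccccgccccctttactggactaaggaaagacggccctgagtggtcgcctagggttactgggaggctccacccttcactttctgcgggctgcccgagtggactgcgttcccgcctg

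RefSeq promoters were at hand for 37 of the 43 genes, 50 sequences in all. Their median CpG number was 5.5, with a range of 0 to 32, against 7 over all 32851 promoters. The E-box letters CANNTG, which read the same on both strands and which myogenic factors bind, were present in 43 of the 50 sequences (86%), against 72.3% of all promoters. The form CAGCTG, which is contained in the former, was present in 19 (38%) against 16.3%. The CArG box, the serum response factor motif, was present in 8 (16%) against 1.63%, among them Acta1, Actc1, Myh4, Ldb3, Myl3 and Myom1. These counts are descriptions of letters only. They are of sequences and not of genes, and overlapping sequences of the same gene, such as those of Ldb3, count separately.

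The starts of these genes were CpG-poor and seldom covered. Only 15 of the 43 windows held the 5 compared cytosines required for a test (34.9%), against 61.8% of protein-coding genes, whereas 36 bodies did (83.7%), against 63.8%. The median window held 27 CpGs, against 61 for protein-coding genes, and the ratio of observed to expected CpGs was 0.250 against 0.474. Windows with a test had a median of 89 CpGs and those without had 25. The range over the list ran from 10 CpGs in Myot, a Z disc protein, to 129 in Myom1, an M band protein. In 16 windows no cytosine was compared. These belong to the myosin heavy chains Myh2, Myh3 and Myh8, the troponins Tnni1, Tnnt1 and Tnnt2, and Myl2, Mybpc1, Mybph, Tpm3, Myom2, Myoz2, Myot, Tcap, Csrp3 and Ckmt2. A further 12 windows held 1 to 4 (Actc1, Myh1, Myh4, Myh7, Myl1, Mybpc2, Tnnc1, Ttn, Neb, Myom3, Myoz1 and Pvalb). For Actc1, Tnnc1, Tcap, Csrp3, Myl1 and Mybph neither window nor body could be tested.

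**Figure D1:**
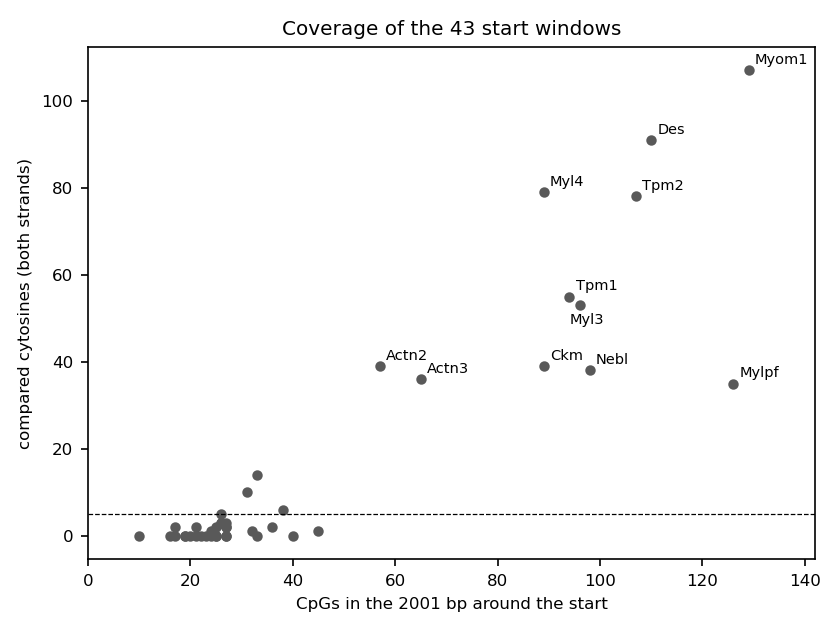
CpGs in each start window (horizontal axis, count) against compared cytosines of both strands (vertical axis, count) for the 43 genes, with the minimum of 5 as a dashed line. The windows with over 40 compared cytosines all have at least 89 CpGs, and most genes lie below the line.

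Of the 15 windows tested, 12 lay under 20% in siCon, and their median level was 4.84%, against 3.86% over all windows and 2.07% over those of protein-coding genes. The lowest level belonged to Tpm1, tropomyosin, at 0.278% of 1796 reads, and the highest to Mb, the oxygen-binding protein myoglobin, at 68.2% of 255 reads. The compared cytosines of the Mb window also lie within Apol6. No window differed by the criterion of an adjusted p under 0.05 with at least 10 percentage points, which 0.606% of all windows met. Adjusted p under 0.05 regardless of size was reached by 2 of 15, Tpm1 and Nebl, against 6.82% of all windows, and unadjusted p under 0.05 by 5 of 15, against 19.7%. All 5 were higher in siH19. In all, 10 windows were higher and 5 lower, with a median difference of 1.17 percentage points, against 0.0883 over all windows. With CCGG and TCGA included the median was 0.190 points against 0.193 over all windows (15 higher, 11 lower), and with reads summed 0.282 against 0.0447 (8 higher, 7 lower). Of the 14 windows with at least 3 cytosines on each strand, 8 had the same direction on both.

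Among thin filament genes, 5 of 12 windows were tested. Tpm1 went from 0.278% to 1.36%, with a difference of 1.28 points when reads were compared cytosine by cytosine (95% interval 0.00942 to 2.54, exact stratified test, adjusted p = 0.00763), both levels being near 0. With CCGG and TCGA included the difference was 0.0914 points, and with a window of 2 kb to each side 0.452 points. Neither had an adjusted p under 0.05 in the exact stratified test. Nebl, which encodes nebulette, the nebulin relative of heart, went from 11.9% (Wilson interval 9.92 to 14.2) to 17.2%, a difference of 4.99 points (interval 1.63 to 8.35, exact stratified test, adjusted p = 0.0467). It was 6.43 on the plus strand and 3.24 on the minus strand, and it missed the threshold in 6 of 11 alternative settings. Tnnc2, troponin C of fast fibres, had 54.7% and 78.7% over only 6 cytosines, but most siCon reads lay on the less methylated CpG downstream of the start, where 97 were counted against 46 in siH19, and compared cytosine by cytosine the difference was 5.15 points (interval -3.95 to 14.2, unadjusted exact p = 0.283). Acta1 was at 12.8% and 11.7% and Tpm2, a beta tropomyosin, at 4.84% and 4.48%, with overlapping Wilson intervals.

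The thick filament windows were tested for 3 light chains and no heavy chain. Myl4, an atrial and embryonic light chain, was at 0.503% and 0.385%, Mylpf, the fast regulatory chain, at 0.340% and 0.622%, and Myl3, the slow chain, at 3.90% and 3.76%. Their differences ran from -0.969 points in Myl3 (interval -2.71 to 0.774) to 0.157 points, with -0.158 in Myl4 (interval -0.761 to 0.444). The annotated start of Myl3 lies 21817 bp from its RefSeq start, inside Pth1r, and those of Myl4 and Mylpf share their windows with the starts of Cdc27 and Tbc1d10b, and their values cover both genes. For 5 genes the RefSeq start lay more than 2 kb from the annotated one (Ckm 6318 bp, Myom1 16924 bp, Tnni1 19987 bp, Myl3 and Neb 39676 bp).

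Of the 4 Z disc and filament windows tested, all had a positive stratified difference and none had adjusted p under 0.05. Actn2 was at 47.4% (Wilson interval 44.2 to 50.7) and 51.7% (49.2 to 54.2), Actn3, the fast fibre alpha-actinin, at 1.89% and 4.03%, Des at 3.98% and 5.00%, and Ldb3, a Z disc scaffold, at 10.6% and 9.68%, the last with a stratified difference of 1.17 points. Actn2 had the widest of these differences, 3.69 points (interval -0.300 to 7.68, unadjusted exact p = 0.0741). Its unweighted mean over cytosines was -2.21 points, with 18 cytosines higher and 20 lower, whereas Actn3, Des and Ldb3 stayed positive unweighted (2.26, 0.302 and 1.64). Des differed by 3.27 points on the plus strand and -0.462 on the minus strand, and in Actn2, Actn3 and Ldb3 both strands were positive. Actn3 shares its window with the start of Zdhhc24. In the M band Myom1 was at 1.502% and 0.671% (difference -0.393, interval -1.24 to 0.450), and its window covers starts of Myl12a and Myl12b.

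The remaining windows were those of Ckm, the muscle creatine kinase, at 7.98% and 11.3% (difference 4.33, interval 0.520 to 8.13, adjusted p = 0.146 by the exact stratified test), and Mb at 68.2% and 67.1% (difference -0.327, interval -8.29 to 7.63). Further RefSeq starts of Mb lie 27883 and 27943 bp downstream, with 2 and 0 compared cytosines in their windows. The Ckm window contains the start of Klc3. Around the RefSeq start of Ckm the level was lower, 2.70% and 4.92% over 8 cytosines. Inner RefSeq starts of other genes, more than 2 kb from the annotated start, held at least 5 compared cytosines in 4 cases. The inner start of Tpm3 was at 0.606% and 1.31% over 79 cytosines, that of Tpm1 at 0.863% and 0.437% over 66, and that of Pvalb, the calcium buffer parvalbumin of fast fibres, at 6.59% and 7.13% over 30, whereas that of Neb was at 62.8% and 58.8% over 11. Of the genes not tested, the few reads gave levels from 1.00% in Myh4, of 100 reads, to 90.2% in Actc1, the cardiac actin, of 51 reads.

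**Figure D2:**
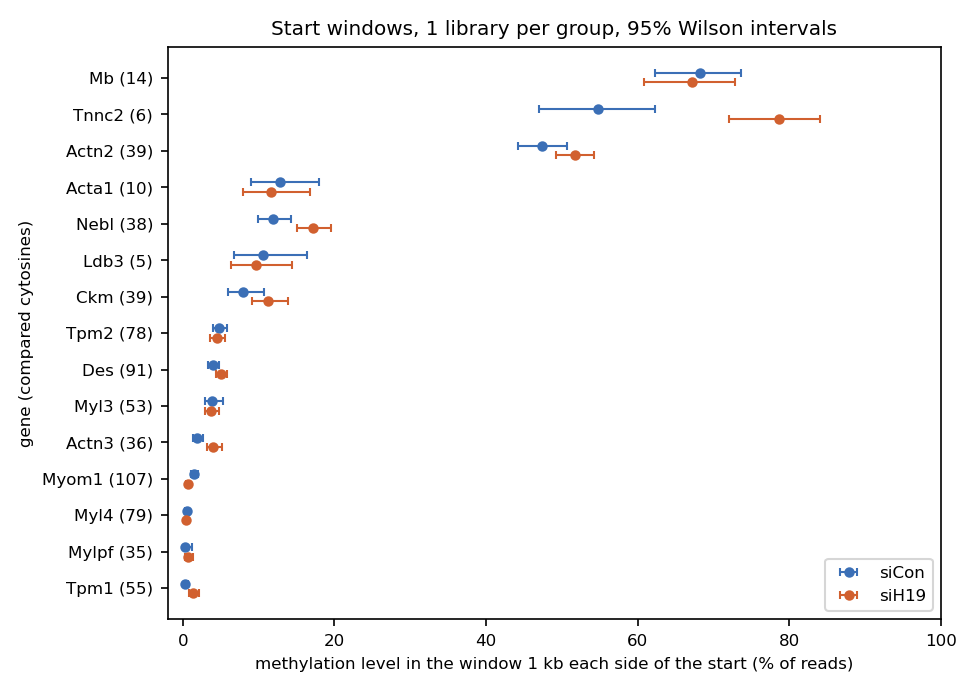
Methylation level (horizontal axis, % of reads methylated) in the start window of the 15 genes with at least 5 compared cytosines, ordered by siCon level, with 95% Wilson intervals for siCon (blue) and siH19 (orange). The widest gap is that of Tnnc2, 54.7% against 78.7%, whose stratified difference was 5.15 points.

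The gene bodies were more methylated, with a median over 36 tested of 49.1% in siCon and 51.4% in siH19, against 54.7% and 55.6% over all bodies. Levels ran from 8.50% in Tpm3 to 96.9% in Tpm2. The other bodies under 20% in siCon were those of Tpm1 at 9.80%, Mybpc2 at 14.4%, Pvalb at 18.1% and Myl3 at 18.6%. In Tpm3, a run of 76 of the 96 compared body cytosines was centred 304 bp from an inner transcript start. Tpm1 and Pvalb had such runs of 62 of 119 and 30 of 44 cytosines, centred 31 and -13 bp from an inner start. The runs in Myl3 lay inside Pth1r, the largest at -19932 bp from the nearest Myl3 transcript start. These levels therefore do not describe gene interiors alone. The bodies met the criterion of adjusted p under 0.05 with at least 10 points in 1 gene, Myoz1 (0.272% of all bodies), and adjusted p under 0.05 of any size in 2, Myoz1 and Acta1 (1.24%). The unadjusted p was under 0.05 in 12 of 36, against 12.1% of all bodies, with 10 higher and 2 lower. In all, 24 were higher in siH19 and 12 lower, and the median difference was 0.543 points against 0.177 over all bodies. With reads summed the median turned to -1.04 points against 0.249, with 17 higher and 19 lower. In 13 of the 36 the direction was opposite when reads were summed over the body.

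Myoz1 went from 63.4% of 191 reads to 88.8% of 394 over 10 cytosines, with a stratified difference of 19.0 points (interval 11.3 to 26.8, exact stratified test, adjusted p = 0.000384). It was 27.7 points on the plus strand and 6.38 on the minus strand, and 7 cytosines were higher against 3 lower. It missed the threshold on the minus strand alone and with CCGG and TCGA included (8.92 points). No test was possible without repeats or with at least 20 reads. Acta1 went from 31.1% to 37.0% over 62 cytosines, a difference of 9.27 points (interval 6.11 to 12.4, exact stratified test, adjusted p = 2.08e-05), with 45 cytosines higher and 16 lower and 11.3 and 6.81 points on the plus and minus strand. Myl2, the slow regulatory light chain, had the widest difference, 24.4 points (32.8% to 60.8%, interval 10.5 to 38.3), but it rested on 6 cytosines with 67 and 120 reads, and the exact stratified test gave adjusted p = 0.0502. With CCGG and TCGA included it was 4.34 points (adjusted p = 0.283, same exact test). Mb, at 56.95% and 68.1% in the body, differed by 5.55 points (interval 1.76 to 9.34) with adjusted p = 0.132 in the exact stratified test.

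Lower bodies did not pass the test after adjustment. Myom2, of the M band, was at 65.0% and 51.3% (stratified difference -3.55, interval -6.57 to -0.533). Myoz2, a Z disc protein of slow fibres and heart, was at 71.1% and 62.5% (difference -6.65, interval -17.1 to 3.80), Myot, which encodes myotilin, at 32.4% and 25.8% (-6.62, -13.6 to 0.349), Tnnt2, cardiac troponin T, at 73.4% and 65.9% (-6.38, -12.6 to -0.175), and Tnnt1, the slow form, at 52.2% and 42.1% (-5.62, -12.4 to 1.14). Ttn, whose body gave 497 compared cytosines and 11303 and 11211 reads, was at 64.9% and 66.6%, with a difference of 0.656 points (interval -0.388 to 1.70). Among roles, the median body level in siCon was 34.4% in the thick filament, 49.2% in the thin filament, 54.1% in the Z disc group, 65.0% in the M band and 46.0% in the energy, calcium and oxygen group. The median differences lay between -0.268 points in the M band and 2.55 points in the energy group. Fast fibre genes had a median body level of 31.1%, slow ones 49.2% and developmental ones 53.5%. Those differences in level were not tested. The group medians include bodies that cover inner RefSeq starts, such as Tpm1, Tpm3, Pvalb, Ckm, Tnni1, Myom1, Neb, Nebl, Myl4, Mylpf and Mb. Such bodies also hold sequence upstream of those starts. The Myl3 body was read mostly in Pth1r. Over all bodies of the list, with reads summed, exonic cytosines lay at 49.8% and 50.4% and intronic ones at 33.2% and 33.3%. Means over cytosines were 54.8% and 55.8% in exons and 37.3% and 38.7% in introns. Of the 1131 exonic cytosines 456 were in Ttn, at 66.9% in siCon. The intronic ones included 34 of Ldb3 at 1.87% in siCon, most of the Tpm3 run and those of Myl3 in Pth1r. This difference in level was not tested.

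**Figure D3:**
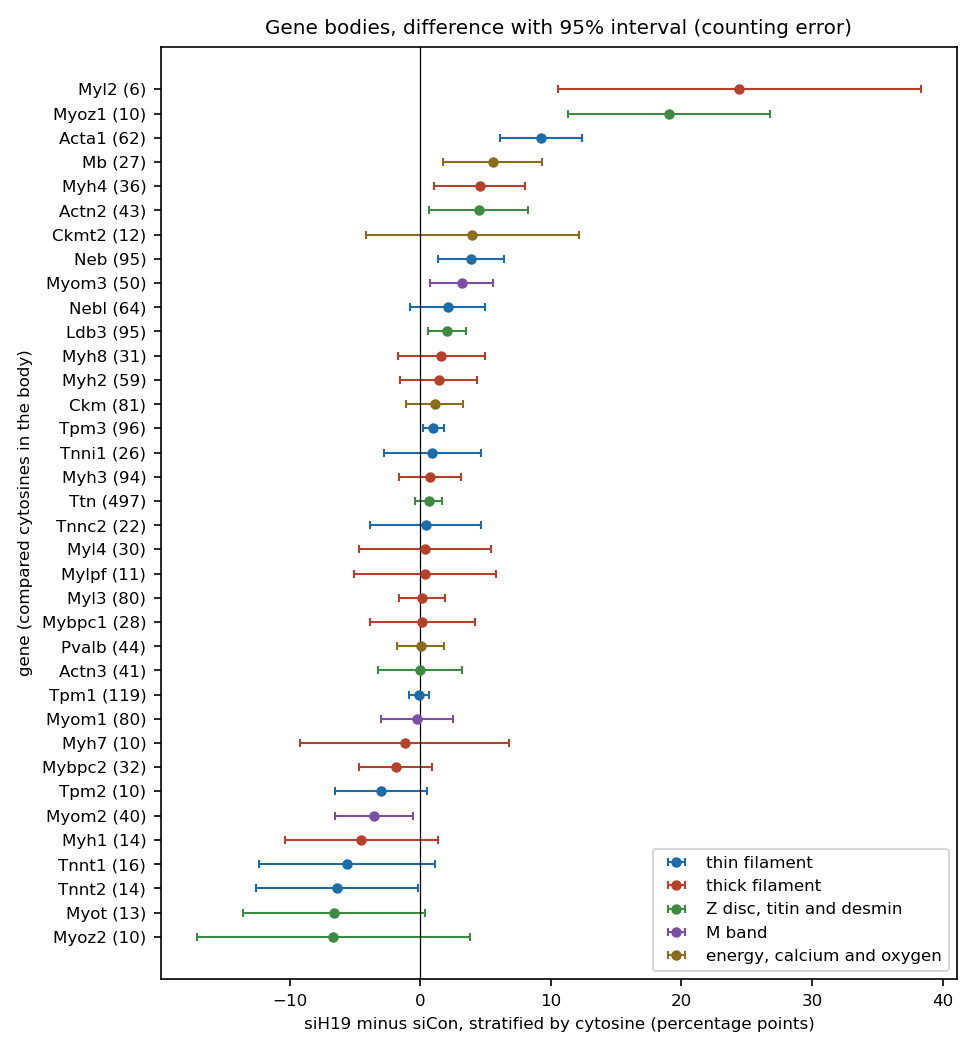
Difference in body methylation, siH19 minus siCon in percentage points (horizontal axis), for the 36 genes with at least 5 compared cytosines, with 95% intervals of counting error and colours by role. Myl2, Myoz1 and Acta1 stand to the right, and the intervals of 24 genes span 0.

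Differences were then located in covered clusters, runs of at least 5 compared cytosines with neighbours at most 100 bp apart. The genes held 147 clusters, 120 in bodies, 26 in windows and 1 centred just outside the Actn3 window. The criterion of adjusted p under 0.05 with at least 10 points was met by 3 (1.02% of all clusters), adjusted p under 0.05 of any size by 4 (2.64%) and unadjusted p under 0.05 by 28 (13.6%). In 12 body clusters the siCon level was under 10%, and in 53 it was over 60%.

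The Acta1 cluster at chr8:123892357-123892718 had 36 cytosines, 22 of them in coding exon, and also lies within Gm20388. It went from 30.2% to 39.7%, a difference of 11.2 points (exact stratified test, adjusted p = 0.00037), with 11.3 points on the plus strand and 10.9 on the minus strand and 28 of 36 cytosines higher. A second Acta1 cluster in the UTR at the end of the gene (chr8:123891906-123891955) went from 19.8% to 28.4% over 12 cytosines, a difference of 8.87 points (exact stratified test, adjusted p = 0.0505). The Myoz1 cluster at chr14:20653176-20653208 rested on 8 cytosines, all in repeat sequence, which went from 64.8% to 90.4%, with 31.9 points on the plus strand and 5.20 on the minus strand. The Neb cluster at chr2:52336004-52336016 went from 30.9% to 45.8% over 6 cytosines, all of them higher, with 32.5 points on the plus strand and 7.32 on the minus strand (exact stratified test, adjusted p = 0.0421). The Neb cluster missed the threshold with reads summed, with restriction sites included and with a minimum of 3 cytosines per region, and the Acta1 cluster on the minus strand alone (adjusted p = 0.0818 in the exact stratified test). The Acta1 cluster also fell under 10 points with reads summed (9.56) and with CCGG and TCGA included (8.46), so that only the Myoz1 cluster of the 3 met the criterion in those settings. An Actn3 coding cluster (chr19:4862347-4862392) went from 73.3% to 83.0%, 9.74 points, just under the minimum of 10. Another Actn3 coding cluster, chr19:4864035-4864096, went from 69.7% to 59.6% (exact stratified test, adjusted p = 0.107).

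**Figure D4:**
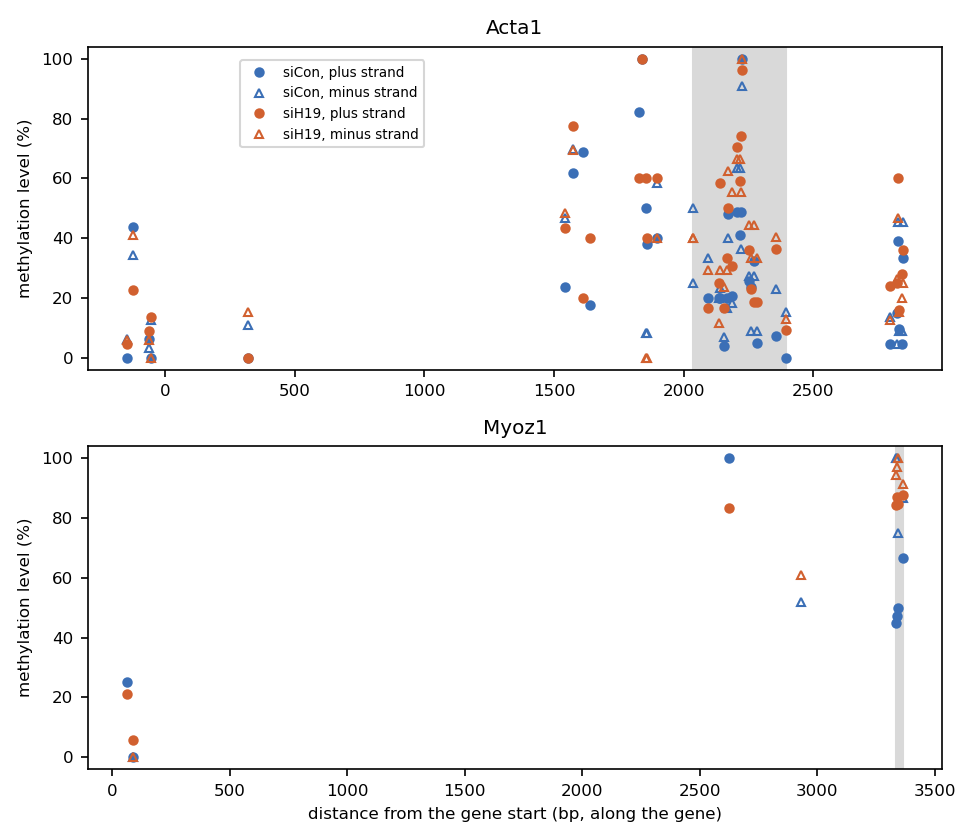
Methylation level of single cytosines (vertical axis, %) by distance from the gene start (horizontal axis, bp) in Acta1 and Myoz1, siCon in blue and siH19 in orange, plus strand filled and minus strand open, with the clusters that met the criterion in grey. In Myoz1 the gap between libraries is mostly on the plus strand, whereas in Acta1 it is seen on both.

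The Ttn gene alone held 37 clusters, with siCon levels from 13.9% to 94.7% and a median of 70.2%, of which 19 were higher in siH19 and 18 lower. Its exonic cytosines, 456 of 497, lay at 66.9% and 68.3%, and its 41 intronic ones at 43.3% and 49.1%. Clusters under 10% in siCon included 62 cytosines of Tpm1 at chr9:67043422-67043934 (0.739% and 0.285%), 76 of Tpm3 at chr3:90079644-90080395 (0.624% and 1.32%) and 34 of Ldb3 at chr14:34549164-34549503 (1.87% and 3.52%).

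Single cytosines were called strongly changed at an unadjusted p under 0.05 in Fisher's exact test with at least 33 points. There were 35 among the 2718 (1.29%, against 0.986% of all compared cytosines), of which 29 were higher in siH19 (1.07%, against 0.519%) and 6 lower. Unadjusted p under 0.05 of any size was found for 83 (3.05% against 2.53%). None had an adjusted p under 0.05, and the lowest was 0.107. They lay in 15 genes, 30 in bodies and 5 in windows, and Ttn held 10, of which 9 were higher. The opposite strand was covered for 26, moved the same way in 11 and was also strongly changed in 0. Neighbouring cytosines were counted singly, although reads of 1 fragment can cover several. With the strands of a CpG summed, 11 were strongly changed, 9 higher and 2 lower (0.702% against 0.694%).

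The lowest p belonged to a Ttn exon cytosine at chr2:76835942 on the minus strand, with 4 of 36 reads methylated in siCon (11.1%) and 36 of 66 in siH19 (54.5%). Its opposite strand was at 35.3% and 49.3%. In Myom3, an M band protein, chr4:135778141 went from 35.3% to 70.7% and its opposite strand from 41.2% to 64.6%. In Ttn chr2:76879155 went from 41.9% to 76.4%, with the opposite strand at 55.2% and 55.8%, and chr2:76944996 went the other way, from 90.0% to 41.7%. The opposite strand of the latter was at 95.5% and 100%. In the Myl3 window 3 cytosines at chr9:110742454, 110742474 and 110742486 had the same counts, 4 of 8 in siCon and 0 of 26 in siH19. Their opposite strands had 0 of 12 methylated reads each in siCon, and 0, 2 and 0 of 20 in siH19. The Neb intron cytosine chr2:52336004 had 0 of 13 methylated reads in siCon and 26 of 60 in siH19 (43.3%), with the opposite strand at 60.9% and 66.7%. The Neb window cytosine chr2:52379171 went from 92.9% to 46.9%, with the opposite strand at 66.7% and 62.5%. The Myoz1 intron cytosine chr14:20653199 went from 47.4% to 87.2% with the opposite strand at 100% and 97.1%. In the Actn2 window chr13:12340707 went from 100% of 15 reads to 44.4% of 9. In Actn3 chr19:4866652 went from 36.7% to 100% of 7 reads, with the opposite strand at 54.7% and 52.2%.

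**Figure D5:**
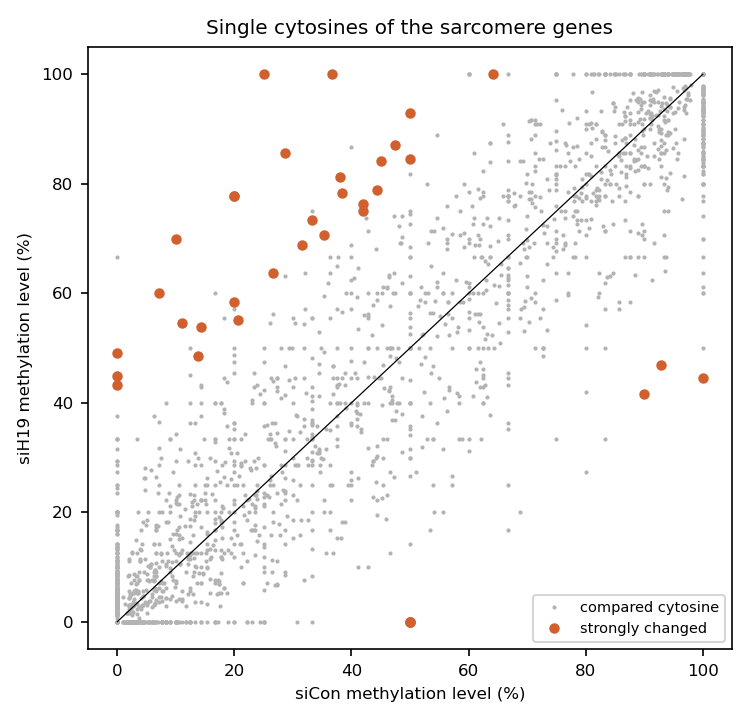
Methylation level of each of the 2718 compared cytosines of the 43 genes in siCon (horizontal axis, %) and siH19 (vertical axis, %), with the 35 strongly changed in orange. Of these, 29 lie above the line of equal levels and 6 below it.

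A further 27 sarcomere genes that were not on the list, among them Myh6, Tnnt3 and Flnc, gave 11 tested windows and 21 tested bodies. None had an adjusted p under 0.05 in the exact stratified test. The median difference was -0.893 points in windows, with 4 higher and 7 lower, and -0.0233 points in bodies, with 10 higher and 11 lower.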

How the data were processed

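CpG methylation came from bisulfite-treated restriction fragments of 1 siCon and 1 siH19 library, grouped by the labels. DNA was cut with MspI and TaqI. Per the methods, the authors base-called reads (bcl2fastq 1.8.4 in the processing notes), aligned them with Bismark in non-directional mode within a provider's pipeline and trimmed filled-in nucleotides. The processing notes name mm10. Duplicate removal is not given in the sources used here. The deposited values are raw reads without normalization, held in another form than a plain number, a text field of methylated and total reads per CpG cytosine and strand. The deposited score, made by the authors as the methylated share scaled to 1000, was used only to check parsing and matched in 100% of entries.

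Of 3416032 entries with at least 5 reads in both libraries, 3413804 lay on assembled chromosomes, and 0 lay off a CpG of GRCm38. Genes were from GENCODE vM21, and sequences from RefSeq. The test of windows, bodies and clusters was the exact conditional Mantel-Haenszel test with the cytosine as stratum, two-sided, with Benjamini-Hochberg adjustment over all regions of a kind that held at least 5 cytosines. Differences are Mantel-Haenszel weighted and levels are methylated over all reads summed. Single cytosines were tested with Fisher's exact test. Reads of 1 fragment cover several cytosines, so p-values are too small. Computations used Python 3.11.15, numpy 2.4.6 and scipy 1.17.1 and were tested on simulated data.

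All 15 tested windows were given by level, whereas only some of the 36 tested bodies were given singly. Full statistics went to genes called and to the 4 largest differences in each direction, and cytosines were named in order of p. The genes and lists were chosen with earlier results of these data known, and 1 gene of the further list is not reported here. Alternatives were the summed-read test, read and cytosine minimums, restriction sites, repeats, depth, strands and window size, and the RefSeq starts, which were added after seeing the data.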

Additional observations from a re-analysis of the deposited data

Results flagged for a closer look

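Cytosines inside CCGG or TCGA were not part of the comparisons above. In these genes 2327 were covered, of which 14 had an adjusted p under 0.05 in Fisher's exact test over all restriction-site cytosines (0.602%, against 0.675% of all), 7 higher in siH19 and 7 lower. On the opposite strand of the same CpG, 13 of the 14 moved in the other direction. The 7 lower ones included Myl3 chr9:110740886 (86.7% to 16.7%), Myom1 chr17:71069255 (66.7% to 13.9%) and Mylpf chr7:127207985 (58.3% to 8.33%). The 7 higher than the control library are given here. In the Tpm2 window the minus strand cytosine chr4:43524167 went from 10.7% to 64.4%, while its plus strand partner went from 77.8% to 51.1%. The Actn2 window cytosine chr13:12340785 went from 29.6% to 73.6%, and its partner from 40% to 16.1%. The Actn2 body cytosine chr13:12278858 went from 43.4% to 81.0%, and its partner from 76.0% to 40.7%. In Pvalb chr15:78202707 went from 42.7% to 70.4%, and its partner from 37.5% to 14.3%. In Ttn chr2:76770739 went from 65.2% to 100%, and its partner from 52.6% to 40.9%. In Nebl chr2:17671413 went from 38.7% to 64.0%, and its partner from 57.1% to 56.7%. In Des chr1:75360278 went from 46.2% to 72.1%, and its partner from 77.0% to 45.7%.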

How the results depend on the processing

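With reads summed and Fisher's exact test, 1 window (Tnnc2), 6 bodies and 7 clusters were called, against 0, 1 and 3, and over all features 2.52% of windows, 8.68% of bodies and 2.23% of clusters. Of the 3 clusters only that of Myoz1 was among the 7. Without a minimum difference, 2 windows and 2 bodies were called, against 6.82% of all windows and 1.24% of all bodies. At least 20 reads left 0 bodies (0.432% of all bodies) and 1 cluster, in Acta1 (1.05% of all clusters), and Myoz1 could not be tested there. Adding CCGG and TCGA gave 0 bodies (0.169%) and 2 clusters, in Myoz1 and Pvalb (0.564%). It raised the median window level from 4.84% to 28.7%, as over all windows (25.3%). The plus strand alone gave 2 bodies, Acta1 and Myoz1 (0.362% of all bodies). The minus strand alone gave 1 body, Mb (0.418%), and 0 clusters (1.37% of all clusters). The whole span gave 2 bodies, Myl2 and Myoz1 (0.352%). A window of 2 kb gave a median level of 8.63%. Strongly changed cytosines numbered 67 at 20 points (2.47%, against 1.87% of all cytosines), 21 at 10 reads (0.982% against 0.773%), 8 at 20 reads (0.694% against 0.286%), 83 with the restriction sites (1.65% against 1.42%), 11 with strands summed (0.702% against 0.694%) and 0 after adjustment. The cause of these changes was not tested.

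Tpm1's window kept its adjusted p under 0.05 in 8 of 11 alternatives and that of Nebl in 5. The Myoz1 body was lost on the minus strand (6.38 points) and with the restriction sites (8.92 points), and the Acta1 body on the minus strand (6.81 points). With repeats left out, or with at least 20 reads, Myoz1 could not be tested in body or cluster. The Myl2 body passed in 3 alternatives but was at 4.34 points with the restriction sites. The median body difference of 0.543 points was -1.04 with summed reads, and the median window difference stayed positive in all 11, from 0.190 (0.193 over all windows) to 1.42, and at 20 reads it was 0.561 with 5 higher and 5 lower. No paired analysis was possible because each group is 1 library and the labels carry no replicate numbers. Windows of 28 genes gave too few cytosines to test.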
